A study of Homo sapiens with 60 samples.

Results

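The genes of 10 amino acid transporters of the plasma membrane were followed through HepG2 cells treated with herbal extracts: SLC7A5, SLC3A2, SLC1A4, SLC1A5, SLC38A1, SLC38A2, SLC38A4, SLC6A14, SLC7A1 and SLC43A1. They were taken by name from a gene-level count table, and all 10 of the 10 listed genes were found among its 60675 genes and passed the filter on low counts. HepG2 is an established human line from a hepatocellular carcinoma. Its cells received vehicle or 1 of 8 extracts for 24 h, and mRNA was sequenced in 60 libraries that fall into 25 groups. The vehicle group (3 libraries) is labelled 0.1% DMSO, while the series text gives 2%. Each extract was given at 500 µg/mL (High), 100 µg/mL (Medium) and 20 µg/mL (Low). SDT (Sibjeondaebo-tang) and PMT (Palmul-tang) are herbal formulas extracted in water, with 3 and 2 libraries per dose. Poria cocos, Atractylodis Rhizoma, Glycyrrhizae Radix (licorice root, here Glycyrrhiza) and Panax ginseng are single herbs extracted in 70% ethanol, with 3 libraries per dose. Angelicae Gigantis Radix and Paeoniae Radix, also ethanol extracts, have 1 library per dose. All groups are the same cell line with no genetic change named in the labels. The labels do not say whether the libraries of a group are separate cultures, so p-values may measure only a technical spread.

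Amino acids enter cells through carriers with different substrates and driving forces. SLC38A1 and SLC38A2 move small neutral amino acids such as glutamine and alanine inward with sodium, and the exchangers SLC1A4 and SLC1A5 trade small neutral amino acids, SLC1A5 being a main glutamine carrier of tumour cells. SLC7A5 (LAT1) then exchanges internal glutamine for leucine and other large neutral amino acids, and it reaches the membrane only with its heavy chain SLC3A2 (CD98). SLC7A1 (CAT-1) carries arginine and lysine, SLC43A1 (LAT3) lets large neutral amino acids pass by facilitated diffusion, SLC6A14 takes up neutral and cationic amino acids with sodium and chloride, and SLC38A4 is a system A carrier of differentiated liver. Several of these genes are known targets of ATF4, the transcription factor made when amino acids run short or the endoplasmic reticulum is stressed, which binds composite C/EBP-ATF response elements.

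Because several members moved together, their promoter windows were searched for the letters TGATGNAA on either strand (TTNCATCA when read on the other), the core of such composite elements. RefSeq windows on GRCh38.p14, from 250 bases before to 50 bases after each annotated start, were found for all 10 genes (17 windows). At least 1 match lay in 5 of the 10 genes, and in 5 of their 17 windows (29.4%). Of all 35116 windows of that length in the table, 1270 (3.62%) held a match. By gene, 1217 of 27305 (4.46%) did. In the 250 bases before the start alone, 1104 of the 35116 windows (3.14%) held a whole match. The matches of SLC3A2, SLC1A4 and SLC38A1 do not lie wholly in that part, being after the start or across it. No match in a window says only that these letters are not there, and a match is not a site of binding. The 5 matches are printed with their flanks, 30 bases each, 5′ to 3′ on the gene's strand, with the match in capitals, so that they can be compared.
SLC3A2: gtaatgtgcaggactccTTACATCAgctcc
SLC1A4: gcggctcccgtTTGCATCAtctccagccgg
SLC1A5: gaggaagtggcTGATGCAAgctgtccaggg
SLC38A1: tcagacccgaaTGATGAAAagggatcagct
SLC7A1: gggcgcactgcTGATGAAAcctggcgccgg
The SLC3A2 stretch is chr11:62881719-62881748 (plus strand) and the SLC1A4 stretch chr2:64989381-64989410 (plus strand), both with the motif on the opposite strand. The SLC1A5 stretch is chr19:46784893-46784922 (minus strand). The SLC38A1 stretch is chr12:46266502-46266531 (minus strand) and the SLC7A1 stretch chr13:29595663-29595692 (minus strand). The stretches of SLC3A2, SLC1A4, SLC1A5 and SLC38A1 belong to starts inside the gene as GENCODE release 29 annotates it, and that of SLC7A1 lies at the gene's outer end. All 5 of these genes rose from Low to High Glycyrrhiza, as did SLC7A5 and SLC43A1, whose windows hold no match. Of all genes tested, 28.6% were called higher there. Whether the letters bear on these changes was not tested.

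The genes lie on 7 chromosomes (GRCh38, GENCODE release 29), and all are protein-coding. SLC7A5 (ENSG00000103257) is at chr16:87830023-87869488 on the minus strand and SLC3A2 (ENSG00000168003) at chr11:62856102-62888875 on the plus strand. SLC1A4 (ENSG00000115902) is at chr2:64988477-65023865, plus strand, and SLC1A5 (ENSG00000105281) at chr19:46774883-46788594, minus strand. SLC6A14 (ENSG00000268104) is at chrX:116436622-116461458, plus strand, SLC7A1 (ENSG00000139514) at chr13:29509410-29595688, minus strand, and SLC43A1 (ENSG00000149150) at chr11:57484534-57515786, minus strand. The SLC38 genes share chromosome 12. SLC7A5P2, a processed pseudogene of SLC7A5, held a count equal to 0.139% of that of SLC7A5 over all libraries.

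In vehicle the members spanned a wide range of levels. Genes were compared in CPM (counts scaled to library size) per kilobase of exon. The length is the union of all annotated exons and not that of the transcript expressed here, so the order of genes is approximate. SLC7A5 was highest at 153 ± 5.50 CPM per kb (SD, n = 3), followed by SLC38A2 at 80.7 ± 7.04 and SLC1A5 at 54.7 ± 2.37. SLC3A2 stood at 29.5 ± 1.23 CPM per kb, so on this scale the transcript of the light chain SLC7A5 was above that of its heavy chain. SLC43A1 (20.7), SLC38A1 (14.1), SLC7A1 (13.8), SLC1A4 (9.43) and SLC6A14 (8.01) followed, and SLC38A4 was lowest at 1.00 ± 0.0879 CPM per kb. The SLC38A4 values rest on 122 to 133 counts per vehicle library, against 20439 to 23694 for SLC7A5.

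**Figure D1:**
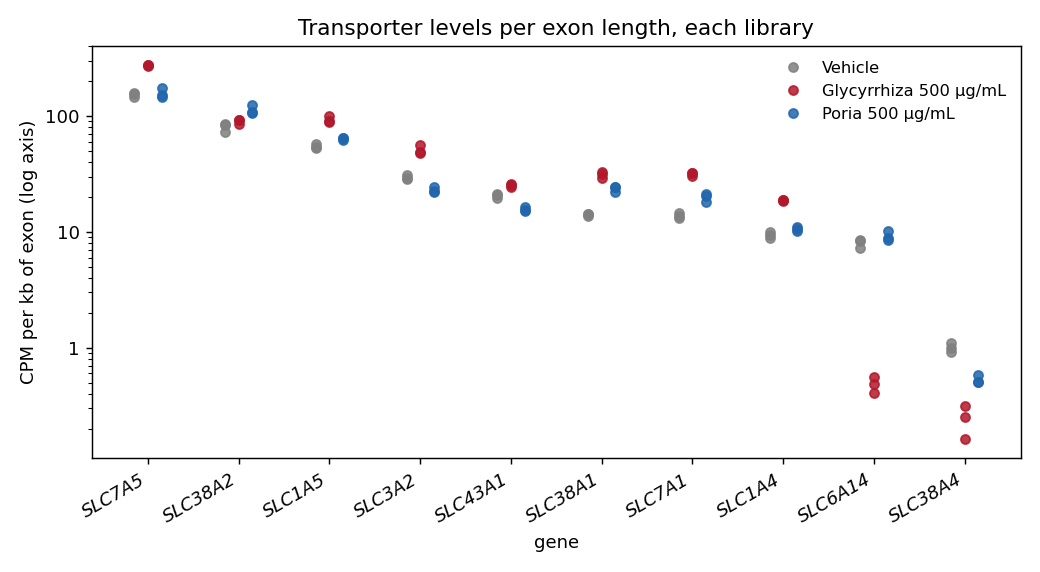
Levels of the 10 genes in CPM per kb of exon (log axis), 1 point per library, in vehicle and in Glycyrrhiza and Poria at 500 µg/mL (3 libraries each). Genes are ordered by their vehicle mean, from SLC7A5 at 153 to SLC38A4 at 1.00, and SLC6A14 lies far lower in Glycyrrhiza than in both other groups.

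Glycyrrhiza at 500 µg/mL moved more of these genes than any other extract with replicates. From Low to High, 7 of the 10 rose, 2 fell and 1 (SLC38A2) did not pass the test, with a median of 0.854 on the log2 scale. The comparison was wide: 56.3% of all 16286 genes tested were called, 28.6% higher and 27.7% lower (edgeR quasi-likelihood test, Benjamini-Hochberg adjusted p under 0.05), and the median of all genes was 0.00913. The 9 called members are to be read beside that share. The sizes of the 7 rises lay between the 77.1th and 92.1th percentile of the absolute change of all genes tested.

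The LAT1 pair rose together. SLC7A5 stood at 717, 701 and 749 CPM in the Low libraries and at 1320.3, 1311 and 1281 CPM in the High libraries. Every High library was above every Low library, and the log2 change was 0.85 (SE 0.05, adjusted p = 1.7e-20). SLC3A2 went from 116, 115 and 117 CPM to 253, 247 and 291 CPM (log2 change 1.18, SE 0.07, adjusted p = 7.5e-20). Its High libraries were also above all 3 vehicle libraries (151, 159.8 and 147 CPM), whereas its Low libraries were below them.

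The neutral amino acid exchangers followed. SLC1A4 was at 65.7, 65.5 and 65.8 CPM at Low and at 128, 131 and 132 CPM at High (log2 change 0.99, SE 0.04, adjusted p = 3.2e-25). Both groups were tight and did not overlap. SLC1A5 rose from 167, 167 and 166 CPM to 300.1, 299 and 334 CPM (log2 change 0.90, SE 0.05, adjusted p = 1.3e-20). SLC1A5 overlaps sequence annotated on the opposite strand, and whether counting used strand is not given in the sources used here. The antisense gene AC008622.2 had a mean level of 18.6 ± 7.88 CPM (SD, n = 3) in Glycyrrhiza High, 12.1 ± 4.53 in Low and 1.26 ± 0.298 in vehicle, and its part in the SLC1A5 values was not tested.

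The arginine carrier SLC7A1 was at 116, 121 and 125 CPM at Low and at 247, 247 and 233 CPM at High (log2 change 1.01, SE 0.06, adjusted p = 3.3e-19). SLC43A1 rose less, from 56.6, 55.0 and 57.9 CPM to 91, 89.0 and 85.8 CPM (log2 change 0.65, SE 0.04, adjusted p = 1.0e-17). Against vehicle (75.8, 70.0 and 73.5 CPM) its High libraries were higher by 0.28 on the log2 scale, and its Low libraries lay below vehicle.

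The 3 SLC38 genes lie next to each other on the minus strand of chromosome 12 (GRCh38, GENCODE release 29): SLC38A1 at 46183063 to 46270017, SLC38A2 at 46358189 to 46372867 and SLC38A4 at 46764761 to 46832408. The gaps between them are 88.2 kb and 391.9 kb, with no other protein-coding gene in the stretch of 649.3 kb. Their changes differed in direction. SLC38A1 rose from 174, 172 and 170.3 CPM to 314, 329 and 291 CPM (log2 change 0.86, SE 0.05, adjusted p = 5.1e-20). SLC38A2 stood at 630.4, 636 and 654 CPM at Low and at 611, 612 and 565 CPM at High (log2 change -0.10, SE 0.06, adjusted p = 0.18; -0.11 and 0.033 in a fit of these 2 groups alone). SLC38A4 fell from 4.32, 4.22 and 4.32 CPM to 0.671, 1.3 and 1.05 CPM (log2 change -2.07, SE 0.17, adjusted p = 2.0e-14). The High values of SLC38A4 rest on 20 to 44 counts per library. The opposite-strand gene SLC38A4-AS1, which spans SLC38A4, held 22 to 46 counts per library in the High group and 15 to 33 in the Low group, and its part in the SLC38A4 values was not tested.

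SLC6A14 gave the widest change of the members. It was at 49.9, 50.7 and 47.7 CPM in Glycyrrhiza Low, at 45.2, 48.0 and 47.0 CPM in Medium and at 2.18, 1.83 and 2.53 CPM in High. The 3 High libraries held 58 to 65 counts of this gene and the 3 Low libraries 1382 to 1572. The log2 change from Low to High was -4.53 (SE 0.10, adjusted p = 1.0e-34), at the 99.8th percentile of the absolute change of all genes tested. From Low to Medium it was -0.08 (adjusted p = 0.67). Among the 19 groups with replicates vehicle had the next lowest mean of SLC6A14, 36.2 ± 3.20 CPM. In these bulk libraries fewer cells with a transcript and less transcript per cell cannot be told apart, for this gene and all others.

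Between Low and Medium Glycyrrhiza, where 3.5% of all genes were called (1.71% higher, 1.79% lower), 3 members rose and 1 fell. SLC7A5 rose by 0.18, SLC1A5 by 0.18 and SLC38A1 by 0.19 on the log2 scale, and SLC38A4 fell by 0.54, to 2.81, 3.13 and 2.91 CPM (adjusted p = 0.019). SLC1A4 stood at -0.01 there and SLC3A2 at 0.16 (adjusted p = 0.97 and 0.23). A fit of these 2 groups alone also called SLC3A2 (0.16, adjusted p = 0.0074) and SLC7A1 (0.15, adjusted p = 0.032). These calls were small and did not hold when single libraries were left out: 0 members stayed called without Medium replicate 1, 1 when any one of the 3 Low replicates was left out and 2 without Medium replicate 2. In the fit of all groups SLC3A2, SLC1A4, SLC6A14, SLC7A1 and SLC43A1 were called at 500 µg/mL and not at 100 µg/mL against Low. High against Medium was not tested.

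**Figure D2:**
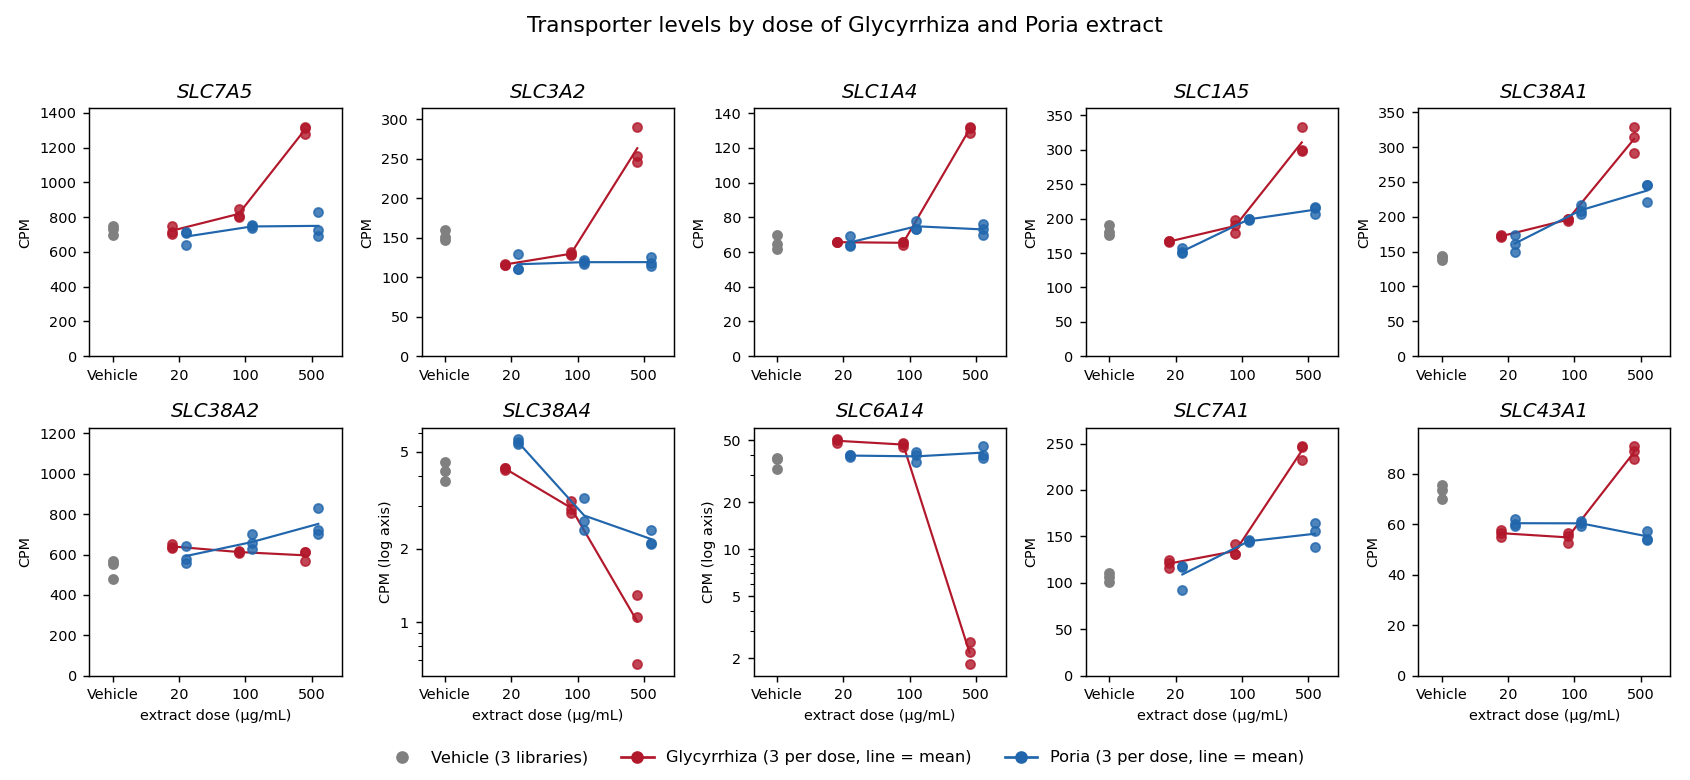
Level of each gene in CPM against extract dose in µg/mL for Glycyrrhiza and Poria, with vehicle at the left. Points are libraries and lines join the means of 3 libraries, and SLC38A4 and SLC6A14 have log axes. In Glycyrrhiza the step from 100 to 500 µg/mL is the large one for most genes (SLC1A4 to 128, 131 and 132 CPM), while in Poria SLC38A4 is already lower at 100 µg/mL.

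In Poria 8 members changed with dose. From Low to High 6 members rose, 2 fell and 2 did not pass, with 38.5% of all genes called (20% higher, 18.4% lower) and a median of the members of 0.139 against -0.00326 for all genes. The largest rise was that of the glutamine carrier SLC38A1, from 161, 174 and 149.7 CPM to 221, 246 and 246 CPM (log2 change 0.56, SE 0.05, adjusted p = 5.0e-13). SLC7A1 went from 118, 117 and 91.9 CPM to 165, 156 and 138 CPM (log2 change 0.49, SE 0.06, adjusted p = 7.7e-09). SLC1A5 went from 149.7, 151 and 157 CPM to 217, 206 and 216 CPM (log2 change 0.48, SE 0.05, adjusted p = 4.5e-11). None of these 3 genes had overlapping Low and High libraries, and the share of all genes without overlap was not counted.

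SLC38A2 rose here, from 560.2, 640.0 and 576 CPM to 704, 722 and 829 CPM (log2 change 0.34, SE 0.07, adjusted p = 2.9e-05), and Poria High was its highest group among those with replicates. SLC38A4 fell, from 5.38, 5.65 and 5.47 CPM to 2.11, 2.09 and 2.39 CPM (log2 change -1.32, SE 0.16, adjusted p = 2.5e-09). So within the cluster on chromosome 12 the outer genes moved the same way in both extracts, up for SLC38A1 and down for SLC38A4. The LAT1 pair moved little: SLC7A5 by 0.12 (adjusted p = 0.029), with Low libraries at 642 to 715 CPM and High libraries at 693 to 829 CPM that overlapped, and SLC3A2 by 0.03 (adjusted p = 0.75). SLC1A4 rose by 0.15, SLC43A1 fell by 0.13 and SLC6A14 stood at 0.07 (adjusted p = 0.51). The small calls of SLC7A5, SLC1A4 and SLC43A1 were lost in a fit of the 2 groups alone (adjusted p = 0.34, 0.15 and 0.16), and with no filter on low counts (0.18, 0.11 and 0.078). SLC7A5 went to 0.04 without High replicate 1 and to 0.08 without Low replicate 3, and SLC43A1 was also lost without High replicate 1, High replicate 3 or Low replicate 3 (adjusted p = 0.065, 0.066 and 0.070). From Low to Medium Poria, with 15.5% of all genes called (8.26% higher, 7.26% lower), SLC7A1 (0.41), SLC1A5 (0.38), SLC38A1 (0.38) and SLC1A4 (0.19, adjusted p = 0.094 in a fit of the 2 groups alone) had already risen and SLC38A4 had fallen by 1.01.

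The other 4 replicated extracts changed few of these genes with dose. In Atractylodis (6.42% of all genes called from Low to High, 3.4% higher and 3.03% lower) SLC38A1 rose by 0.18 (adjusted p = 0.017) and SLC38A4 fell by 0.52 (adjusted p = 0.015). SLC38A4 was at 4.73, 5.33 and 4.63 CPM at Low and at 2.7, 3.79 and 3.73 CPM at High there, with no overlap. In ginseng (5.66% called, 2.63% higher and 3.03% lower) SLC1A5 rose by 0.18 (adjusted p = 0.019) and SLC38A1 by 0.16 (adjusted p = 0.042). Each of these calls was lost when one or another library was left out: 1 to 2 members stayed called in Atractylodis and 0 to 1 in ginseng, where the 0 came without Low replicate 3, and without High replicate 1 the log2 change of SLC38A4 in Atractylodis was -0.38 (adjusted p = 0.15). The calls were also lost in a fit of the 2 groups alone in Atractylodis and with no filter in ginseng. In SDT and PMT edgeR called 0 members from Low to High, where 1.06% and 0.516% of all genes were called. At an unadjusted p under 0.05 there were 4 members in SDT (SLC3A2, SLC1A4, SLC1A5 and SLC6A14) and 2 in PMT (SLC38A1 and SLC43A1), and DESeq2 called 1 in SDT (SLC1A4, log2 change 0.15, adjusted p = 0.035) and 0 in PMT. From Low to Medium edgeR and DESeq2 both called 0 members in these 4 extracts, with 1 (SLC7A5, in SDT) at an unadjusted p under 0.05, and edgeR called 0.00614% of all genes in SDT and 0% in PMT, Atractylodis and ginseng. Over the 6 extracts SLC38A1 was called higher from Low to High in 4 of 6 and SLC1A5 in 3 of 6, and SLC38A4 was lower in 3 of 6. DESeq2 also called SLC1A5 in Atractylodis (0.14, adjusted p = 0.046), and the fit of the 2 groups alone lost SLC38A1 there (adjusted p = 0.13).

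**Figure D3:**
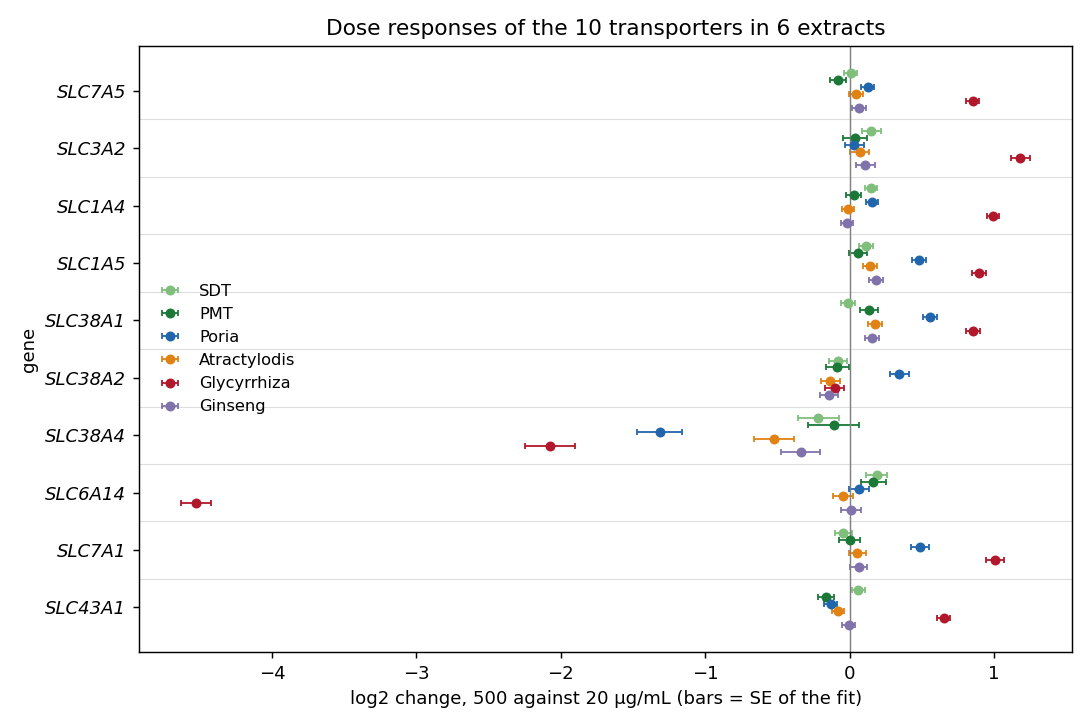
The log2 change of each gene from 20 to 500 µg/mL in the 6 replicated extracts, with the SE of the edgeR fit as bars. Glycyrrhiza stands apart from the other extracts for most genes, SLC38A2 lies near 0 in Glycyrrhiza and at 0.34 in Poria, and SLC6A14 is at -4.53 in Glycyrrhiza.

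The dose responses were compared with each other directly, as differences of the log2 change from Low to High. Glycyrrhiza minus Poria was called for all 10 members, 7 higher and 3 lower, with 45.6% of all genes called (21.9% higher, 23.7% lower). The largest positive differences were those of the heavy chain SLC3A2 (1.15, adjusted p = 7.9e-14), SLC1A4 (0.84, adjusted p = 2.2e-16), SLC43A1 (0.78, adjusted p = 1.4e-14) and SLC7A5 (0.73, adjusted p = 8.2e-13). The smallest positive one was that of SLC38A1 (0.30, adjusted p = 0.00032). SLC38A2 (-0.45), SLC38A4 (-0.76) and SLC6A14 (-4.59) were lower in Glycyrrhiza than in Poria. The difference of SLC38A4 was lost without Glycyrrhiza High replicate 1 (-0.53, adjusted p = 0.078). Against the mean response of SDT, PMT, Atractylodis and ginseng, Glycyrrhiza was higher for 7 members and lower for 2 (52.8% of all genes called, 26.9% higher and 25.9% lower), and SLC38A2 was not called (0.01, adjusted p = 0.94). Poria against the same mean was higher for SLC7A1 (0.47), SLC38A2 (0.46), SLC38A1 (0.44) and SLC1A5 (0.36) and lower for SLC38A4 (-1.02), with 28.7% of all genes called (15.4% higher, 13.4% lower). For SLC7A5, SLC3A2, SLC1A4, SLC6A14 and SLC43A1 that difference was not called.

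Against vehicle, several members already differed at the lowest dose, in a way shared by the extracts. SLC3A2 was lower at 20 µg/mL in all 6 replicated extracts, with log2 changes of -0.57 to -0.39, and so were SLC43A1 (-0.37 to -0.21) and SLC1A5 (-0.28 to -0.13). SLC38A1 was higher in all 6, by 0.19 to 0.35. SLC38A2 and SLC6A14 were each higher in 5 of the 6, Poria being the exception (adjusted p = 0.093 for SLC38A2 and 0.18 for SLC6A14), and SLC7A1 was higher in 4 of the 6. SLC7A5 and SLC1A4 were called in none, and SLC38A4 was called only in Poria, at 0.40, whether Poria differs from the others there not being tested. The count of SLC38A2 depends on the setting, since it was called in Poria as well with no filter (0.15, adjusted p = 0.041) and without Vehicle replicate 3 (0.21, adjusted p = 0.038). SLC7A1 was called in PMT as well in the fit of the 2 groups alone (adjusted p = 0.043), with the replicate block (0.037) and without Vehicle replicate 3 (0.046), and in Poria without Low replicate 3 (0.034). Many of these calls are small. Without Vehicle replicate 2, those of SLC6A14 in SDT, PMT and Atractylodis, of SLC7A1 in Atractylodis, Glycyrrhiza and ginseng, of SLC38A2 in PMT, of SLC1A5 in Glycyrrhiza and of SLC38A4 in Poria were lost (adjusted p = 0.070 to 0.25). All but that of SLC6A14 in SDT were also lost without one or another Low library of the extract. The call of SLC1A5 in Glycyrrhiza was lost without any one of its Low libraries, without Vehicle replicate 3 and with no filter (adjusted p = 0.067 to 0.16), that of SLC38A1 in Poria without Low replicate 2 (adjusted p = 0.061) and in a fit of the 2 groups alone (0.079), and that of SLC43A1 in PMT without Low replicate 2 (adjusted p = 0.066). In all, 7 members were called in SDT, where 35.8% of all genes were, 6 in PMT (31%), 5 in Poria (19.2%), 7 in Atractylodis (26.8%), 7 in Glycyrrhiza (29.9%) and 7 in ginseng (33.5%). All of these comparisons use the same 3 vehicle libraries, so their likeness is not independent. Vehicle and each of these 6 extracts also carry different set codes in the labels (C1 against 8, 9 and 10), so extract and set cannot be told apart here, whereas Low, Medium and High of an extract share a code. Only vehicle is given a DMSO percentage in the labels used here, so extract and solvent cannot be told apart either.

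**Figure D4:**
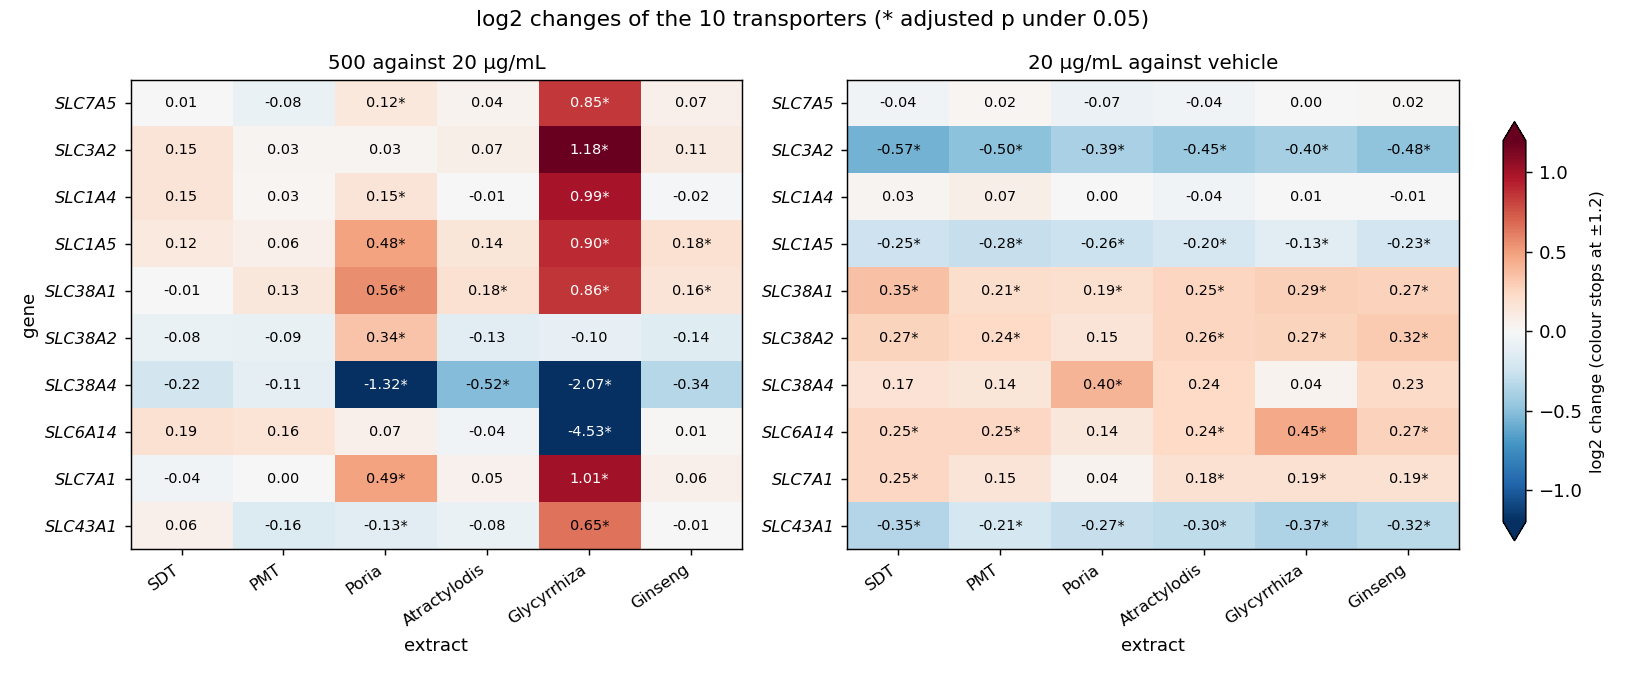
log2 changes of the 10 genes in the 6 replicated extracts, 500 against 20 µg/mL at left and 20 µg/mL against vehicle at right (values in cells, asterisks for adjusted p under 0.05, colours stopping at ±1.2). At left, calls gather in Glycyrrhiza and Poria. At right, SLC3A2, SLC1A5 and SLC43A1 are lower and SLC38A1 is higher in all 6 columns.

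At the High dose against vehicle, 8 members were higher and 2 lower in Glycyrrhiza (61.3% of all genes called, 30.7% higher and 30.6% lower), and 6 were higher and 3 lower in Poria (51.3%, 25.8% higher and 25.5% lower). The rise of SLC38A2 in Glycyrrhiza (0.16, adjusted p = 0.028) was lost without Vehicle replicate 2 (0.09, adjusted p = 0.27), High replicate 1 (adjusted p = 0.072) or High replicate 2 (0.080). In SDT 8 members were called (34.3% of all genes), in PMT 5 (29.3%), in Atractylodis 5 (33.9%) and in ginseng 6 (36.3%). In SDT the call of SLC1A5 (-0.13) was lost with no filter (adjusted p = 0.091) and in the fit of the 2 groups alone (0.051). It was also lost without Vehicle replicate 2 or 3 (0.20 and 0.054) or High replicate 2 or 3 (0.20 and 0.088). SLC38A2 was lost without Vehicle replicate 2 in SDT and ginseng (0.19 and 0.27). High replicates 1 and 2 mattered likewise in SDT (0.065 and 0.093), and 2 and 3 in ginseng (0.056 and 0.077). SLC38A1 was higher than vehicle in all 6 extracts at High, by 0.34 to 1.14 on the log2 scale. SLC3A2 and SLC43A1 were lower than vehicle in 5 of the 6 at High, Glycyrrhiza being the exception with 0.79 and 0.28 (differences between extracts at High alone were not tested). SLC6A14 was the reverse, higher than vehicle in 5 and lower in Glycyrrhiza (-4.07). Of those 5, Poria and Atractylodis were lost without Vehicle replicate 2 (adjusted p = 0.18 and 0.26), Poria also without High replicate 3 (0.16), and Atractylodis also without High replicate 2 or 3 (0.20 and 0.079). At Medium, 7 members differed from vehicle in SDT (35.9% of all genes called), 7 in PMT (29.7%), 8 in Poria (38.7%), 6 in Atractylodis (28.2%), 8 in Glycyrrhiza (34.8%) and 6 in ginseng (29.7%). SLC38A1, SLC38A2 and SLC7A1 were higher than vehicle at Medium in all 6 extracts and SLC3A2 and SLC43A1 lower in all 6. Without Vehicle replicate 2 the Medium call of SLC38A2 was lost in all but Poria (adjusted p = 0.10 to 0.30) and that of SLC7A1 in PMT and ginseng (0.10 and 0.091). SLC38A2 was also lost at Medium in Atractylodis in the fit of the 2 groups alone (0.075) and without Medium replicate 2 or 3 (0.16 in both), in SDT without Medium replicate 1 (0.16) and in PMT without Medium replicate 2 (0.35), and SLC7A1 in PMT without Medium replicate 2 (0.33) and in ginseng without Medium replicate 1 (0.076).

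Angelica and Paeonia have 1 library per dose and no replicate check, so their values are log2 ratios without a test. Their set code (11) differs from that of vehicle (C1), so extract and set cannot be told apart in the ratios to vehicle. Paeonia at 500 µg/mL held the highest SLC38A2 level of all 60 libraries, 1137 CPM, against 551, 479.8 and 567 CPM in vehicle and 654 and 683 CPM in Paeonia Low and Medium. Its log2 ratio to the vehicle mean was 1.10, the only member past 1 in a comparison where 6.72% of all genes were past 1. SLC7A1 (0.96, at 207 CPM), SLC6A14 (0.95, at 69.7 CPM) and SLC38A1 (0.92, at 267 CPM) came next, and SLC38A4 was at 0.58. SLC7A5 (0.12), SLC43A1 (-0.01) and SLC3A2 (-0.13) were near vehicle. At Paeonia Low, SLC3A2 was at -0.68 to the vehicle mean, and SLC38A1 (0.32), SLC7A1 (0.32) and SLC6A14 (0.30) were already above it. From Paeonia Low to High the largest log2 ratios were those of SLC38A2 (0.80), SLC1A5 (0.77), SLC6A14 (0.65), SLC7A1 (0.65), SLC38A1 (0.60) and SLC3A2 (0.55). SLC7A5 had the smallest (0.10), and 6.27% of all genes were past 1 there. In the Paeonia High library SLC6A14 and SLC38A4 were at their highest level of all libraries, while the Glycyrrhiza High libraries held their lowest. In Angelica High all 10 ratios lay between -0.34 (SLC43A1) and 0.41 (SLC38A1), and 3.47% of all genes were past 1.

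Ordered by mean CPM over the 19 replicated groups, Glycyrrhiza High was first for SLC7A5, SLC3A2, SLC1A4, SLC1A5, SLC38A1, SLC7A1 and SLC43A1, with libraries that did not overlap those of the next group. The share of all genes with such an order was not counted. From Low to High Glycyrrhiza, 28.6% of all genes tested were called higher. The next group was Glycyrrhiza Medium for SLC7A5 and Poria High for SLC1A5, SLC38A1 and SLC7A1. For SLC3A2 and SLC43A1 it was vehicle. Below the top, neighbouring groups overlapped in most cases: between 14 and 17 of the 18 neighbouring pairs of each gene had overlapping libraries, so the order among them carries little. SLC38A4 and SLC6A14 had Glycyrrhiza High as the last group, and SLC38A1, SLC38A2 and SLC7A1 had vehicle as the last.

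Pearson's r over the 25 group means of log2 CPM ranked the other genes by likeness to each member. It is given as a description, since 6 of the groups hold 1 library and the genes named are the highest of all genes tested. SLC38A1 and SLC7A1 were both most like SLC7A11, the cystine carrier (r = 0.977 and 0.978), and remained so without Glycyrrhiza High (0.962 and 0.957). They were like each other as well (0.957, and 0.925 without that group). SLC1A4 was most like ASNS, asparagine synthetase (0.964), SLC3A2 most like MARS1, methionyl-tRNA synthetase (0.951), SLC7A5 most like GAA, the lysosomal acid glucosidase (0.970), SLC43A1 most like SEPSECS, an enzyme of selenocysteinyl-tRNA synthesis (0.915), SLC1A5 most like MGAT4B (0.966), and SLC38A2 most like P4HA1, a collagen prolyl hydroxylase subunit (0.954). SLC38A4 was most like NUDT4 (0.969) and SLC6A14 most like ECT2, a regulator of cell division (0.980). The second genes were CLCN3 for SLC38A1, SRC for SLC7A1, MAP1LC3B for SLC1A4, DTD1 for SLC3A2, CTC1 for SLC7A5, ETHE1 for SLC43A1, ACVR1 for SLC1A5, APP for SLC38A2, GRB7 for SLC38A4 and AXIN2 for SLC6A14. Many of these values depend on 1 group. Without Glycyrrhiza High, SLC7A11, MGAT4B and P4HA1 kept first place for SLC38A1, SLC7A1, SLC1A5 and SLC38A2, and the first gene of each of the other 6 members changed. MARS1 went to 0.784 (behind COX16 at 0.929), ASNS to 0.869 (behind CD9 at 0.921), GAA to 0.777 (behind SEPTIN9 at 0.793), SEPSECS to 0.809 (behind ZDHHC4 at 0.902) and NUDT4 to 0.915 (behind ZNF362 at 0.934). The r of SLC6A14 with ECT2 went to 0.626 (behind ARHGEF3 at 0.861) and that of SLC7A5 with SLC3A2 from 0.885 to 0.432. No other group was left out. Paeonia High, a single library with the highest SLC38A2 level (1137 CPM), stayed in. How far the values without Glycyrrhiza High rest on that library was not tested.

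Other amino acid carriers moved in both directions. Of 23 further transporters of the plasma membrane, 15 were tested, and from Low to High Glycyrrhiza 9 rose and 4 fell (56.3% of all genes were called there), with a median of 0.546. SLC7A11, which exports glutamate for cystine and like SLC7A5 pairs with SLC3A2, rose by 2.57 (SE 0.07), from a mean of 42.4 ± 0.386 to 252 ± 17.5 CPM (SD, n = 3). The glycine carrier SLC6A9 rose by 1.34, SLC43A2 (LAT4) by 0.98 and SLC7A9 by 0.77. The falls were those of SLC7A10, which held 0 to 3 counts per library at High and 23 to 27 at Low, SLC16A10, an aromatic amino acid carrier (-1.04), SLC7A6 (-0.89) and SLC38A5 (-0.27). In Poria, where 38.5% of all genes were called, 6 of the 15 rose and 4 fell (median 0.143). SLC7A11 rose there too, by 1.28, followed by the taurine carrier SLC6A6 (0.64), SLC36A1 (0.47) and SLC43A2 (0.41), while SLC16A10 (-0.78), SLC6A9 (-0.76), SLC1A2 (-0.48) and SLC38A3 (-0.27) fell. SLC6A9 went up with dose in one extract and down in the other. Carriers of the lysosomal membrane (5 listed, 4 tested) all rose in Glycyrrhiza, with a median of 1.09: the cystine exporter CTNS by 1.14, SLC66A1 by 1.13 and SLC38A7 by 1.05. In Poria 2 of the 4 rose, SLC38A7 by 0.56 and SLC66A1 by 0.41.

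ATF4 and 15 of its known targets outside transport were read beside the members. In Glycyrrhiza, where 56.3% of all genes were called and 28.6% were higher, all 15 tested genes of this list rose from Low to High, with a median of 1.37, NUPR1 by 2.99, DDIT3 (CHOP) by 2.46 and ASNS by 2.44. In Poria (38.5% of all genes called) 5 rose and 5 fell, with a median of -0.08, with NUPR1 at -1.19, ATF3 at 0.68 and STC2 at 0.53. The promoter letters searched above were found in 4 of the 14 genes of this list with a RefSeq window (28.6%), in 1 of 15 of the other plasma membrane carriers and in 0 of 5 lysosomal ones.

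Total counts per library ran from 19057227 to 33233238, with a median of 26375698. Transcripts of the mitochondrial genome took 13.4 to 15.2% of the counts in vehicle, 15.1 to 17.0% in Glycyrrhiza Low, 17.8 to 18.4% in Glycyrrhiza High, 15.8 to 17.5% in Poria Low and 19.7 to 22.3% in Poria High, and every called member stayed called in the same direction when the mitochondrially encoded genes were left out. All 8 of 8 hepatocyte lineage markers passed the filter, with a summed level of 37595 to 53521 CPM over all libraries. From Low to High Glycyrrhiza (56.3% of all genes called, 27.7% lower) 6 of these 8 fell and 1 rose, with AFP at -0.86, TTR at -0.71 and TF at -0.61. In Poria (38.5% called, 18.4% lower) 4 fell and 2 rose, with APOB at 0.40, FGB at -0.34 and APOA1 at -0.29. Fibroblast and stellate markers (2 of 5 tested) summed to 2.58 to 17.0 CPM, nearly all PDGFRB, with a single COL1A2 count in all libraries together. Endothelial markers (2 of 4 tested) summed to 1.67 to 3.24 CPM, with 2 KDR counts in all. Of the leukocyte markers PTPRC was at 0 counts and CD3E at 5 counts in all 60 libraries, while LYZ and CD68, both expressed here, brought the sum to 994 to 2077 CPM. In Glycyrrhiza CD68, a lysosomal protein, rose by 1.35 from Low to High and LYZ fell by 0.54, and in Poria they rose by 0.75 and 0.61.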

How the data were processed

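The submitters' processing notes list FastQC 0.11.9 and Trim Galore 0.6.5 for read quality and trimming, STAR 2.7.3a for alignment to hg38 (GRCh38), and RSEM 1.3.3 for quantification. The annotation release and strand setting are not given in the sources used here. The deposited values are expected counts per gene without normalisation, and 23.4% of those above 0 differ from a whole number by more than 0.005. The table has 270 sample columns, of which the 60 of these samples were used and 210 were not. Symbols came from a gene name table (56558 of 60675 identifiers matched) and coordinates from GENCODE release 29 (57055 matched).

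Expected counts were rounded to whole numbers and filtered with filterByExpr (16286 genes kept). TMM scaling was used, and the test was edgeR's quasi-likelihood test (version 4.0.16, R 4.3.3), two-sided, with Benjamini-Hochberg adjustment over all genes tested and calls under 0.05. One fit with a coefficient per group held 54 libraries in 19 groups, leaving out the groups of 1 library, and 33 comparisons were read from it. The dispersion common to all genes came to 0.00316 (coefficient of variation 5.62%). Levels (CPM) were computed with TMM-scaled sizes over all 60 libraries, and divided by the length of the union of exons for CPM per kb. Sums over marker lists and the levels of overlapping genes use unscaled totals. Likeness and the ratios of Angelica and Paeonia use log2 CPM with a prior count of 2. The script was tested on simulated data.

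Same-numbered libraries deviated together over 8000 genes (every r over 0.1, with 3 pairs) only in Atractylodis, with r of 0.255 to 0.488 for High and Low and 0.162 to 0.558 for Medium and Low. The highest r of libraries with different numbers there was 0.0513 for High and Low and 0.227 for Medium and Low. PMT Low and vehicle, with 2 pairs, had r of 0.13 to 0.179. The numbers come from the labels, and whether they pair the samples was not tested further. A fit with the replicate number as a block changed no call of a member in Atractylodis.

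Named are all 10 members, up to 4 other transporters with the largest called rises and falls in Glycyrrhiza and Poria, the 2 genes most like each member, and up to 3 members of each further list with the largest called changes. The members and lists were chosen with earlier results of these data known. Alternatives were other size factors, DESeq2 1.42.0, no filter, only the groups compared, mitochondrial genes left out, a replicate block, and each library left out. A wortmannin control (10 µM) that the series text names was not analysed here.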

Additional observations from a re-analysis of the deposited data

Results flagged for a closer look

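A difference between 2 dose responses (log2 change from Low to High), tested within the same fit, marks the results below. Those of Glycyrrhiza minus Poria were called for every member: SLC7A5 0.73, SLC3A2 1.15, SLC1A4 0.84, SLC1A5 0.42, SLC38A1 0.30, SLC7A1 0.52 and SLC43A1 0.78 were higher in Glycyrrhiza, and SLC38A2 (-0.45), SLC38A4 (-0.76) and SLC6A14 (-4.59) were lower. Of all genes tested, 45.6% were called in that comparison. For SLC38A2 the sign of the change differed between the extracts, although its change in Glycyrrhiza was not called.

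Glycyrrhiza minus the mean of SDT, PMT, Atractylodis and ginseng was called for 9 members and for 52.8% of all genes tested. It was 0.84 for SLC7A5, 1.09 for SLC3A2, 0.95 for SLC1A4, 0.77 for SLC1A5, 0.74 for SLC38A1, 0.99 for SLC7A1 and 0.70 for SLC43A1, and -1.78 for SLC38A4 and -4.61 for SLC6A14.

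Poria minus the same mean was called for 5 members: SLC1A5 (0.36), SLC38A1 (0.44), SLC38A2 (0.46), SLC7A1 (0.47) and SLC38A4 (-1.02). Of all genes tested, 28.7% were called there. All 24 values are edgeR estimates with an adjusted p under 0.05. Groups of at most 3 libraries are too small for a search for single libraries that stand apart.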

How the results depend on the processing

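Of the 178 called changes of members over 33 comparisons, all 178 kept their direction and their call with RLE size factors, DESeq2, the mitochondrial genes left out and the replicate block, 166 with no filter on low counts and 168 in fits of only the groups compared, and none turned its direction in a called value. With no filter, the count of called members from Low to High went from 8 to 5 in Poria and from 2 to 0 in ginseng, and from Low to Medium in Glycyrrhiza from 4 to 2. In fits of only the groups compared it went from 8 to 5 in Poria and from 2 to 0 in Atractylodis from Low to High, and from 5 to 3 in Poria Low against vehicle. DESeq2 called 1 member in SDT from Low to High, where edgeR called 0. The cause was not tested.
With the replicate block the calls from Low to High stayed at 9 in Glycyrrhiza and 8 in Poria, and SLC7A1 in PMT High (0.17) and Low (0.17) against vehicle and SLC7A5 in Poria from Low to Medium (0.12) were newly called. With the numbers of PMT High crossed, an alternative chosen after seeing the data, the block fit called 0 members and 88 genes from Low to High. Leaving out 1 library at a time kept 1318 of 1418 called values and turned none. The members called stayed at 9 in Glycyrrhiza from Low to High, and ranged from 6 to 8 in Poria, 1 to 2 in Atractylodis and 0 to 1 in ginseng (0 without Low replicate 3 and 1 without any other). From Low to Medium Glycyrrhiza they ranged from 0 to 3 (0 without Medium replicate 1, 1 when any one Low replicate was left out). Against vehicle they ranged from 3 to 6 in Ginseng Medium (3 without Vehicle replicate 2), 4 to 8 in PMT High (8 without Vehicle replicate 3) and 3 to 6 in Poria Low (3 without Poria Low replicate 2). SLC38A4 is limited by depth, with 20 to 44 counts per library in Glycyrrhiza High.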
